A study of Mus musculus with 36 samples.

Results

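The mitosis genes described here are 45 mouse genes whose products carry out cell division: CDK1 and its mitotic cyclins, the mitotic kinases, the spindle checkpoint, partners of the anaphase-promoting complex, the chromosomal passenger complex, centromere and kinetochore proteins, kinesins, chromosome structure proteins, and the proteins of spindle assembly and cytokinesis. They were chosen by name, and each was read from a probe set that the platform annotation assigns to a single gene symbol. That left 44 of the 45 measured, out of 19938 genes, and Ccnb1 (cyclin B1) was not analysed here. The arrays, Affymetrix Mouse Gene 1.0 ST, carried RNA of cells sorted by fluorescence from pooled fetal mouse gonads, and 36 arrays formed 12 groups of 3. Each group is 1 of 2 cell types, germ or supporting, of 1 sex, XX or XY, taken at TS13, TS24 or TS34, which the submitters place before, during and after sexual differentiation.

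Germ cells of every group were sorted with an Oct4 reporter from mice given as progeny of C57BL/6NJ on mixed background. Supporting cells, the somatic lineage that forms Sertoli cells in a testis and pregranulosa cells in an ovary, came from 2 lines. The XX groups at all 3 stages and the XY group at TS13 carried Tg(Sry-EGFP)92Ei and were progeny of CD-1, so an Sry promoter chose the sorted cells. The XY groups at TS24 and TS34 carried Tg(Sox9-cre/ERT2)1Msan/J and were progeny of C57BL/6, so Sox9 activity chose them. Reporter line is therefore tied to cell type throughout, and within supporting cells to the later XY groups. In comparisons that cross the lines, line and group cannot be told apart. The labels do not say that replicates are separate pools of gonads, so p-values rest on a spread among these arrays that may be only technical.

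In a dividing cell, CDK1 bound to cyclin A or B drives entry into mitosis, condensins and topoisomerase II compact the chromosomes, and kinesins build the spindle. Kinetochores attach chromosomes to it, and the checkpoint holds the anaphase-promoting complex inactive until every chromosome is attached. The genes are transcribed mainly in G2 and M, through the MuvB complex with B-MYB and FOXM1, and their RNA is scarce in cells that have left the cycle. In the fetal gonad, germ cells divide before XX germ cells enter meiosis and XY germ cells arrest. Sertoli cells go on dividing, while XX supporting cells express CDK inhibitors as they become pregranulosa cells.

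The array labelled germ XX TS24 replicate 3 had a somatic profile and was left out, so that germ XX TS24 rests on 2 arrays. On it Pou5f1, the Oct4 gene, was at 5.07 and the supporting cell gene Wt1 at 11.19 on the log2 scale. Over the other arrays the mean of 10 germ cell markers ran from 9.88 to 10.63 in germ cells and from 5.73 to 6.70 in supporting cells, and endothelial and macrophage lists stayed between 5.73 and 6.35 in supporting cells. The mean of 9 interstitial and stromal markers ran from 6.57 to 7.30 in supporting cells and changed with stage there, as given beside the results it moves with. Erythroid markers reached 7.87 on a supporting XY TS24 array, against 6.19 to 7.39 in the other supporting groups. Array medians ran from 6.41 to 6.84. XX supporting cells held Fst, a gene of the fetal ovary, at group means of 11.43 to 12.24, whereas Foxl2, the usual pregranulosa marker, stayed at 6.21 to 6.36, below the median of every array. XY supporting cells held Sox9 at 11.03 to 11.70 and, from TS24 on, Amh at 9.84 to 9.99.

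Germ cells held the mitosis genes at a high level in every group, and supporting cells split by sex. The median of the 44 genes on an array lay between 9.63 and 10.52 in germ cells. In XX supporting cells it lay between 7.02 and 7.30 at TS13, between 6.37 and 7.07 at TS24 and between 6.39 and 6.69 at TS34, close to the array median. In XY supporting cells it lay between 7.469 and 8.003 at TS13, between 9.40 and 9.78 at TS24 and between 9.04 and 9.29 at TS34. XY supporting arrays of the later stages thus sat far above the XX supporting arrays and mostly below the germ cells. The highest TS24 array (9.78, replicate 1) passed the lowest germ cell array (9.63, XY TS34 replicate 1), and the TS34 arrays passed none. That germ cell array also had the lowest median over all probe sets, 6.412, against 6.685 on the TS24 array. All 44 genes exceeded the array median on every germ cell array and on every XY supporting array of TS24 and TS34. The number was 41 to 44 in XY supporting cells at TS13, 34 to 38 in XX at TS13, 20 to 26 at TS24 and 18 to 22 at TS34. The lowest group mean of a gene was in XX supporting cells at TS34 for 40 of the 44. The highest was in germ cells for 42, among them XY germ cells at TS24 for 21 and XX germ cells at TS24 for 10, and in XY supporting cells at TS24 for Cdk1 and Racgap1.

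**Figure D1:**
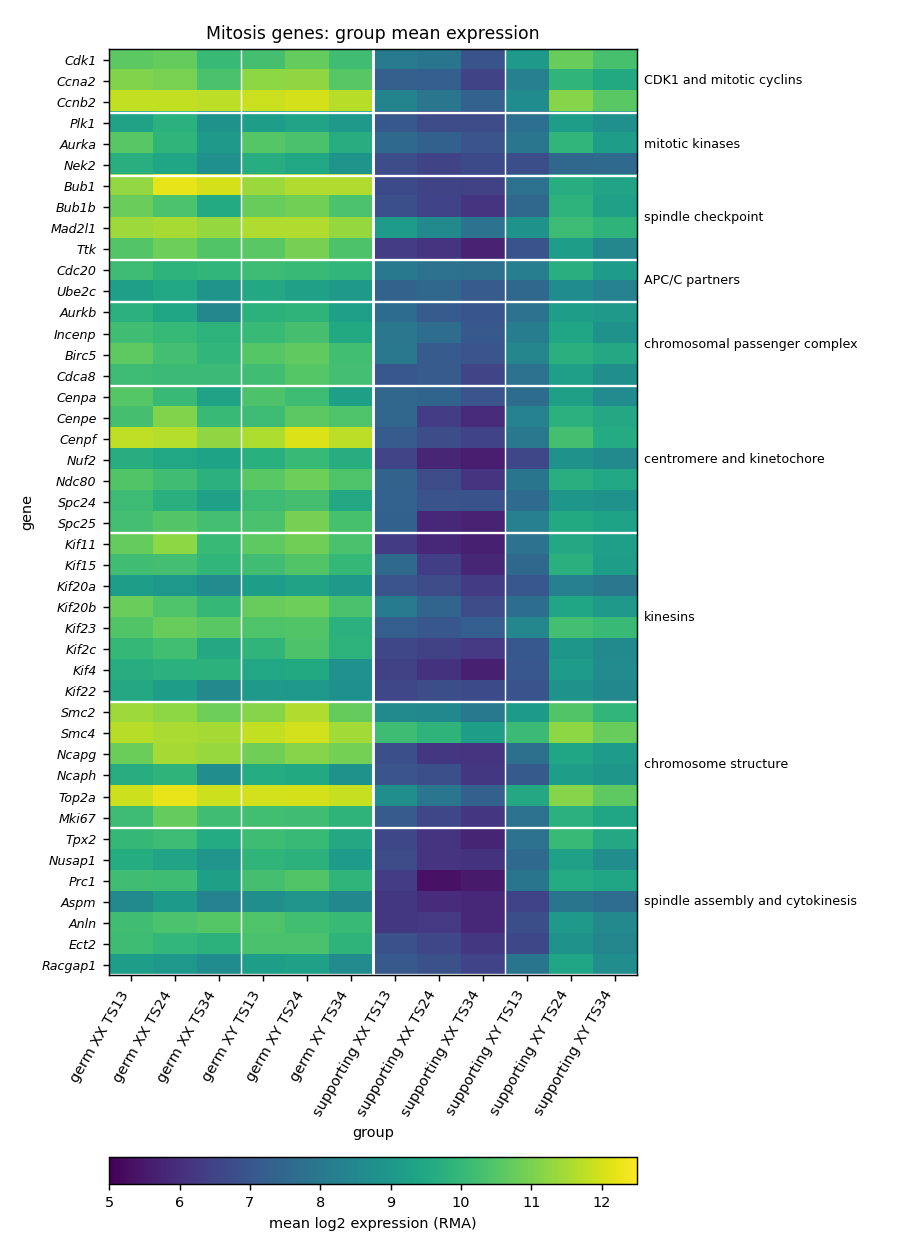
Mean log2 expression (RMA values) of the 44 mitosis genes, rows grouped by role, in the 12 groups, columns. Every gene is high in the germ cell columns, 40 of the 44 have their lowest mean in XX supporting cells at TS34, and the XY supporting columns of TS24 and TS34 are mostly intermediate, except that Cdk1 and Racgap1 have their highest mean in XY supporting cells at TS24.

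Array values of 6 genes show the pattern. Mki67 (Ki-67, which coats mitotic chromosomes) was at 7.20, 7.01 and 7.29 in XX supporting cells at TS13, at 7.55, 6.20 and 6.08 at TS24, and at 6.09, 6.39 and 6.11 at TS34. In XY supporting cells it was at 7.58, 7.99 and 7.95 at TS13, at 9.51, 10.07 and 9.77 at TS24, and at 9.32, 9.58 and 9.40 at TS34. All XY arrays of a stage exceeded all XX arrays of that stage, and XX replicate 1 of TS24 stood above its 2 partners. In germ cells Mki67 stayed between 9.62 and 10.74 on all 17 arrays used.

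Top2a (topoisomerase II alpha, which untangles sister chromatids) was at 8.49, 8.99 and 8.76 in XX supporting cells at TS13 and at 7.51, 6.92 and 7.46 at TS34. In XY supporting cells it went from 9.34, 9.77 and 9.47 at TS13 to 10.63, 10.60 and 10.72 at TS34. The XX arrays of the 2 stages did not overlap, nor did the XY arrays, and the sexes moved in opposite directions. Top2a has 2 probe sets, and with both averaged its XX supporting change shrank from -1.45 to -0.65 (limma adjusted p = 0.0986) and the XY change from 1.12 to 0.65 (limma adjusted p = 0.0534).

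Cdk1, the kinase of mitotic entry, read 7.81, 7.69 and 8.76 in XX supporting cells at TS13 and 7.01, 7.26 and 6.55 at TS34. The XY supporting arrays read 8.93, 9.28 and 8.83 at TS13 and 10.24, 10.35 and 10.37 at TS34. The latter values lay inside the germ cell range, 9.79 to 10.94 over all germ arrays. Plk1, the polo-like kinase, was at 6.75, 6.56 and 6.86 in XX and 8.73, 8.89 and 8.64 in XY supporting cells at TS34. Aurkb, the kinase of the chromosomal passenger complex, was at 7.16, 6.69 and 7.15 in XX and 9.07, 9.26 and 8.86 in XY supporting cells at that stage. Neither gene overlapped between the sexes.

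Bub1, a checkpoint kinase at kinetochores, was the gene that most separated the cell types. Its germ cell arrays ran from 11.12 to 12.33. The XY supporting arrays were at 7.26, 8.05 and 8.09 at TS13 and at 9.46, 9.45 and 9.23 at TS34, and the XX supporting arrays at 6.88, 6.67 and 5.78 at TS34. No supporting array reached the lowest germ cell array.

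**Figure D2:**
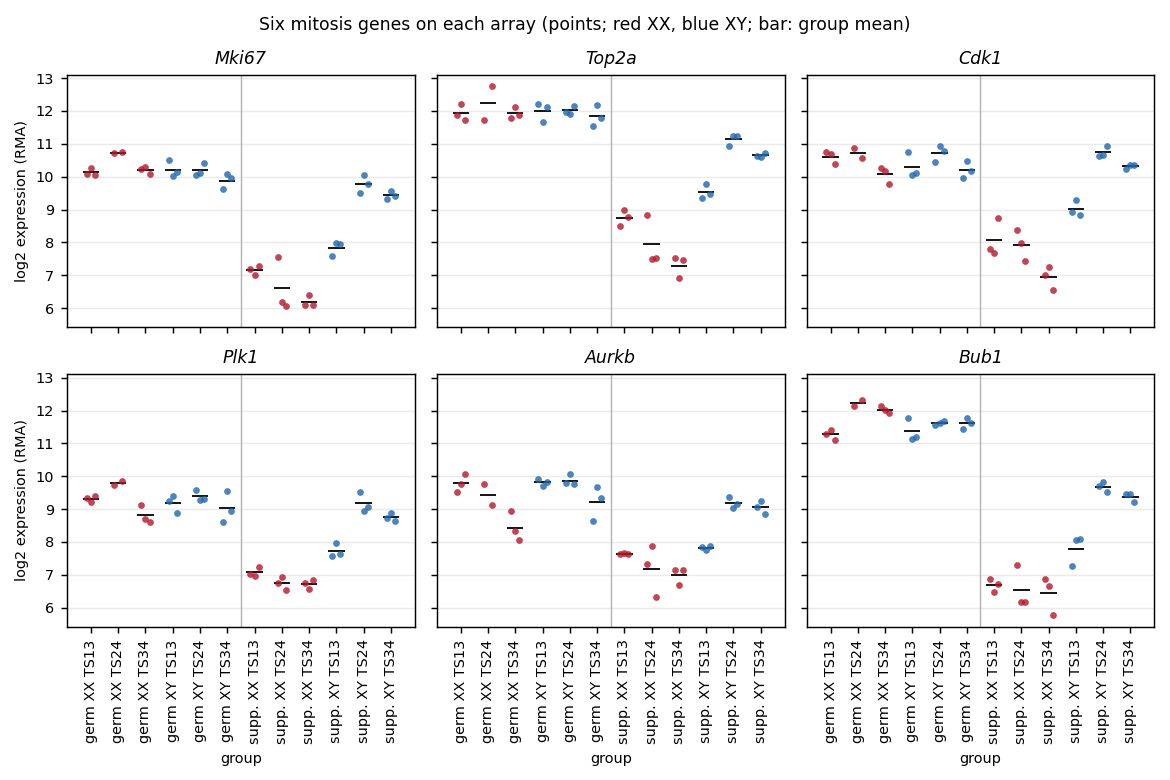
Log2 expression of 6 mitosis genes on each of the 35 arrays used (points, red XX, blue XY) with the group mean (bar), germ cells left of the grey line and supporting cells right of it. XX supporting arrays of Mki67 end at 6.09 to 6.39 at TS34 and XY supporting arrays at 9.32 to 9.58, while germ cell arrays stay at 9.62 or above.

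XX and XY supporting cells were compared at each stage to follow the sexes as testis and ovary diverge. Differences are log2 values ± standard error (SE), on which 1 is a factor of 2, and a gene was called at a limma adjusted p (Benjamini-Hochberg over 17571 genes) under 0.05. Before differentiation, at TS13, where both sexes carried the Sry-EGFP line, 13 of the 44 genes were already higher in XY cells and none was lower, against 1.84 percent of all genes called higher. The median difference of the mitosis genes was 0.52, against -0.07 over all genes. Led by Prc1, which bundles the central spindle (1.56 ± 0.28, limma adjusted p = 1.0e-04), the called genes also held the bipolar spindle kinesin Kif11 (1.52 ± 0.26), the centralspindlin kinesin Kif23 (1.23 ± 0.23) and the spindle assembly factor Tpx2 (1.203 ± 0.25). Prc1 was at 6.78, 6.19 and 6.12 on the XX arrays and at 6.98, 8.01 and 8.78 on the XY arrays, which did not overlap but spread widely. The other called genes were Bub1, Ccna2, Spc25, Ncapg, Cdk1, Cenpe, Nusap1, Cenpf and Cdca8, between 0.79 and 1.11. Nuf2 (0.02), Nek2 (0.03) and Smc4 (-0.04) differed least, and Kif20b had the lowest value (-0.37 ± 0.23, limma adjusted p = 0.71). The count rested on single arrays: it was 5 without XY replicate 2, 8 without XY replicate 3, 6 without XX replicate 1 and 7 without XX replicate 2. It was 20 after median centring and 21 after quantile normalization. Over all genes, 492 and 565 were called higher in these settings, against 323 in the main setting. The mean of the erythroid markers was 6.52 to 7.39 on the XY arrays and 6.53 to 6.59 on the XX arrays. Their part in the difference was not tested.

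At TS24 all 44 genes were higher in XY supporting cells (9.75 percent of all genes were called higher), with a median of 2.65 against 0.04 over all genes. At TS34 all 44 were higher again (8.24 percent of all genes), with a median of 2.62 against -0.01, and the XY arrays of all 44 lay above the XX arrays (19.8 percent of all genes). Prc1 differed by 3.88 ± 0.28 at TS34 (limma adjusted p = 2.8e-16), Tpx2 by 3.75 ± 0.25, the kinetochore kinesin Cenpe by 3.64 ± 0.22 and the Ndc80 complex subunit Spc25 by 3.58 ± 0.26. Prc1 was at 6.05, 5.56 and 4.97 on the XX arrays and at 9.27, 9.53 and 9.42 on the XY arrays. Spc25 was at 5.95, 5.71 and 5.63 in XX and at 9.23, 9.41 and 9.39 in XY cells. The smallest differences were those of the centrosome kinase Nek2 (0.88 ± 0.24, limma adjusted p = 0.0060), Ube2c, the E2 enzyme of the anaphase-promoting complex (1.16 ± 0.25), and its activator Cdc20 (1.39 ± 0.21). At TS24 the order was similar at both ends, with Prc1 at 4.24 ± 0.28 and Tpx2 at 3.89 ± 0.25 above, and Nek2 at 1.01 ± 0.24 and Ube2c at 1.14 ± 0.25 below. At TS34 the mean of the interstitial and stromal markers was 6.87 to 7.07 on the XY arrays and 6.57 to 6.61 on the XX arrays, with 2 of 8 called higher in XY, and their part in the difference was not tested. Both stages compare the Sox9 line with the Sry-EGFP line, so sex and line cannot be told apart. In bulk samples, fewer dividing cells and less RNA per cell cannot be told apart either.

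The sex difference of supporting cells at TS34 is given here by role. The median difference was 3.23 for CDK1 and the cyclins (Ccna2 3.01, Ccnb2 3.23 and Cdk1 3.38), 3.08 for the 7 centromere and kinetochore genes (from Cenpa, the centromeric histone, at 1.63 to Cenpe at 3.64), and 2.85 for the 6 chromosome structure genes (from the condensin Smc4 at 1.59 to Top2a at 3.35, or 1.69 with its probe sets averaged). It was 2.84 for the 4 checkpoint genes (from Mad2l1 at 2.01 to Bub1b at 3.17), 2.58 for the 8 kinesins (from Kif20a at 1.64 to Kif11 at 3.56), and 2.58 for spindle assembly and cytokinesis (from the spindle pole gene Aspm at 1.83 to Prc1). The chromosomal passenger complex had a median of 2.12 (from Incenp at 1.74 to the survivin gene Birc5 at 2.55), the mitotic kinases 2.04 (Aurka 2.23, Plk1 2.04) and the pair Cdc20 and Ube2c 1.27. These are differences within each gene, and whether the roles differed from each other was not tested.

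Promoters were read because the genes moved together in supporting cells. RefSeq windows of GRCm38.p6, from 250 bases before to 50 bases after the annotated start, were matched for 37 of the 44 measured genes. The 4 windows below belong to the genes with the largest sex difference at TS34 among those with a window. Capitals mark letters of the cell cycle genes homology region (CHR, TTTGAA or TTCGAA), the element bound by the MuvB complex, and of the CCAAT box bound by NF-Y, on either strand. Prc1 lies at chr7:80294201-80294500 on the plus strand, Cenpe at chr3:135212313-135212612 on the plus strand, Spc25 at chr2:69206164-69206463 on the minus strand and Kif11 at chr19:37376132-37376431 on the plus strand.
Prc1: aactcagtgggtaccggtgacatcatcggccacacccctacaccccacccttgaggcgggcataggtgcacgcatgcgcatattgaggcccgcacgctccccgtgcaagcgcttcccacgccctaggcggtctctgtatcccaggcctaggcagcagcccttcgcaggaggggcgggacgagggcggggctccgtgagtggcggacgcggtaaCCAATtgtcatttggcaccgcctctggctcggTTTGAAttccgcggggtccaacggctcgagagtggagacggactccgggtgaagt
Cenpe: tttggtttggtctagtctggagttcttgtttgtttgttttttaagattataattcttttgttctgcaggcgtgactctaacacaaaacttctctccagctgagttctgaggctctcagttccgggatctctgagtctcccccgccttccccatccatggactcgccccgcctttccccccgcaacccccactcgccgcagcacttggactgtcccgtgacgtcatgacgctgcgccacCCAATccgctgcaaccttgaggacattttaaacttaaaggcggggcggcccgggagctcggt
Spc25: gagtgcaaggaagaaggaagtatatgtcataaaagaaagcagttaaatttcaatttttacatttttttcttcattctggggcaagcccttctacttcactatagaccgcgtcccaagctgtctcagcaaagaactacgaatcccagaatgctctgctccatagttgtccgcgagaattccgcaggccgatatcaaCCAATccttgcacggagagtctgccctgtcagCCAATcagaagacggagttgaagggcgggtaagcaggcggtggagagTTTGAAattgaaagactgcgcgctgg
Kif11: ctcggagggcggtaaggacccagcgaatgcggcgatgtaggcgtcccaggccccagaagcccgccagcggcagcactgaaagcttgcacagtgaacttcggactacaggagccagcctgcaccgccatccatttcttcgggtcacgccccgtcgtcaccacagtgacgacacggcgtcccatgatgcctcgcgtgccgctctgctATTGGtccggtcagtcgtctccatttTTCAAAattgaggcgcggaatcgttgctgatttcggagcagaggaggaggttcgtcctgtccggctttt
Prc1 has a CHR 5 bases before the start and a CCAAT box 37 bases before it. Kif11 has both on the opposite strand, as TTCAAA 19 bases and ATTGG 45 bases before the start. Spc25 has a CHR 24 bases after the start and CCAAT boxes 55 and 23 bases before it. Cenpe has a CCAAT box 12 bases before the start and none of the CHR letters in the window.

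Of the 37 windows, 30 (81.1 percent) held a CHR, against 16.8 percent of 15614 windows of measured genes, and 29 (78.4 percent against 6.9 percent) held it between 100 bases before and 50 after the start. A CCAAT box was in 27 (73.0 percent against 38.4 percent), and 25 windows (67.6 percent against 6.9 percent) held both. An E2F site (TTTGGCGC, TTTCCCGC, TTTGCCGC or TTTCGCGC) was in 3, those of Cdk1, Kif15 and Ncapg (8.1 percent against 3.1 percent). The windows without CHR letters were those of Birc5, Cenpe, Mad2l1, Ncaph, Nek2, Nuf2 and Nusap1. Of these, Cenpe was among the genes with the largest sex difference in supporting cells and Nek2 had the smallest. A match of letters is a description of the window and no evidence of binding.

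**Figure D3:**
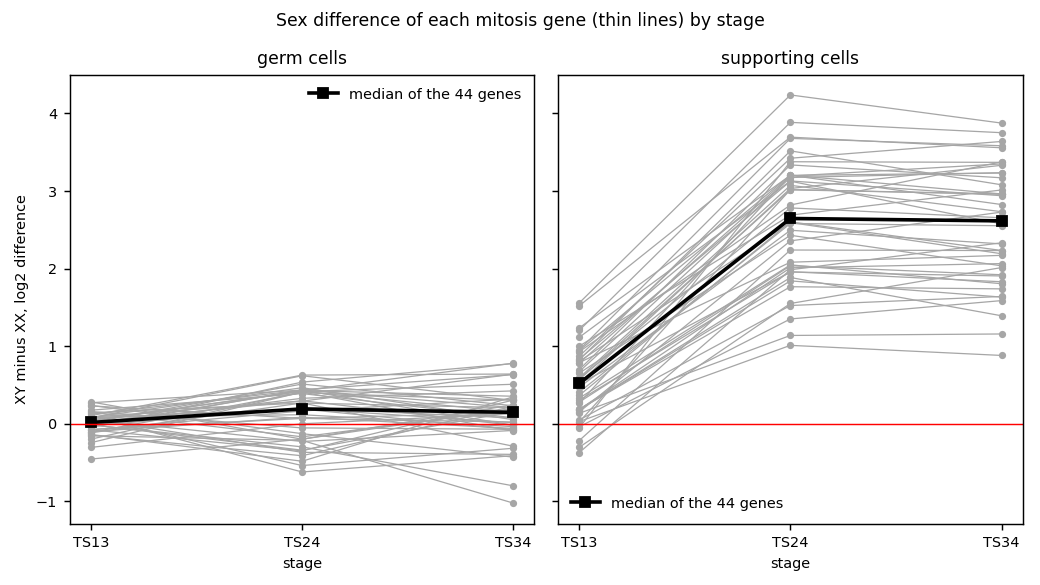
XY minus XX log2 difference of each of the 44 mitosis genes (thin lines) and their median (squares) at TS13, TS24 and TS34, in germ cells (left) and supporting cells (right). The supporting cell median goes from 0.52 to 2.65 and 2.62, and the germ cell median stays between 0.02 and 0.19.

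The change with stage was opposite in XX and XY supporting cells. In XX cells, all from the Sry-EGFP line, 16 of the 44 genes were lower at TS34 than at TS13 and none was higher (1.97 percent of all genes were called lower), with a median of -0.67 against -0.04 over all genes. The 4 that fell most were the spindle kinesin Kif15 (-1.79 ± 0.24, limma adjusted p = 1.7e-07), Cenpe (-1.57 ± 0.22), Spc25 (-1.56 ± 0.26) and Top2a (-1.45 ± 0.25). Kif15 went from 7.25, 7.78 and 7.76 to 6.19, 5.65 and 5.59, and Cenpe from 7.35, 7.29 and 7.75 to 6.26, 5.70 and 5.71, with no overlap of stages. Kif20b, Mad2l1, Ndc80, Cdk1, Birc5, Ccnb2, Smc4, Mki67, Incenp, Tpx2, Kif4 and Ncaph fell by less. Kif23 (0.01), Kif22 (0.08) and Nek2 (-0.09) had the smallest values, and the TS34 arrays of 31 genes lay below the TS13 arrays (15.2 percent of all genes). By role, 4 of 6 chromosome structure genes and 2 of 3 genes of the CDK1 class fell, but 0 of 3 mitotic kinases (Plk1 -0.36 ± 0.20, Aurka -0.61 ± 0.26, Nek2 -0.09 ± 0.24). At TS13 these kinases had means of 7.08 (Plk1), 7.59 (Aurka) and 6.76 (Nek2), against array medians of 6.60 to 6.63. Whether the roles differed from each other was not tested. With limma array weights, 35 genes were called in place of 16, and all genes called lower went from 347 to 1276. The count of mitosis genes was 12 with all 36 arrays and 11 without TS13 replicate 3. The interstitial and stromal markers were lower at TS34 too: their mean was 7.18 to 7.25 on the TS13 arrays, 6.59 to 7.03 at TS24 and 6.57 to 6.61 at TS34, and 3 of the 8 tested were called lower from TS13 to TS34. Their part in the XX values was not tested.

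Part of the XX decrease was present by TS24. Spc25 (-1.45 ± 0.26), Kif15 (-1.202 ± 0.24), Cenpe (-1.10 ± 0.22), Prc1 (-0.996 ± 0.28) and Birc5 (-0.84 ± 0.22) were lower at TS24 than at TS13, 5 genes against 0.768 percent of all genes called lower. The count was 9 without TS24 replicate 1, whose median over the mitosis genes was the highest of its group at 7.07, and 3 without TS13 replicate 1. From TS24 to TS34 only Cdk1 was called, lower by -0.99 ± 0.24 (limma adjusted p = 0.028, 0.467 percent of all genes), and its call was lost after quantile normalization, after median centring, without TS24 replicate 1 or 2 and without TS34 replicate 1 or 3. Without TS24 replicate 3 the count was 3.

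In XY supporting cells all 44 genes were higher at TS24 than at TS13 (15.1 percent of all genes called higher), with a median of 1.67 against 0.22 over all genes, and the TS24 arrays of all 44 lay above the TS13 arrays (27.7 percent of all genes). Cyclin B2, Ccnb2, rose by 2.501 ± 0.28 (limma adjusted p = 2.0e-09), from 8.41, 9.31 and 8.19 to 11.55, 10.88 and 10.98. Bub1b, which encodes the checkpoint protein BUBR1, rose by 2.32 ± 0.24, the kinetochore gene Cenpf by 2.29 ± 0.25 and the checkpoint kinase gene Ttk by 2.25 ± 0.23. Nek2 rose by 0.75 ± 0.24, Smc4 by 1.11 ± 0.21 and Ube2c by 1.15 ± 0.25, the smallest values. At TS34 all 44 were still higher than at TS13 (7.39 percent of all genes), with a median of 1.29. Nuf2, a subunit of the Ndc80 complex, had the largest value (1.98 ± 0.32), followed by Ccnb2 (1.96 ± 0.28), the RhoA exchange factor Ect2 (1.83 ± 0.24) and the condensin subunit Ncaph (1.82 ± 0.23). Between TS24 and TS34 none of the 44 was called, against 1.06 percent of all genes, with a median of -0.38 against -0.17 over all genes. At an unadjusted limma p under 0.05 there were 17 of the 44, against 2408 of all 17571 genes. The line changed from Sry-EGFP to Sox9 between TS13 and TS24, and stage and line cannot be told apart in these cells. The erythroid markers were highest on the TS24 arrays (7.04 to 7.87, against 6.52 to 7.39 at TS13 and 6.76 to 6.91 at TS34). The interstitial and stromal markers were lower at TS24 in XY cells too. Their mean was 7.129 to 7.302 on the TS13 arrays, 6.705 to 6.848 at TS24 and 6.871 to 7.073 at TS34. The part of either marker list in the XY values was not tested.

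The sex difference of supporting cells grew between TS13 and TS34 for 42 of the 44 genes (3.11 percent of all genes), by a median of 2.03. Kif15 had the largest growth, 3.42 ± 0.34 (limma adjusted p = 1.2e-10): its sex difference was -0.05 at TS13 and 3.37 at TS34. Nek2 (0.85 ± 0.34) and Ube2c (1.02 ± 0.35) were not called.

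**Figure D4:**
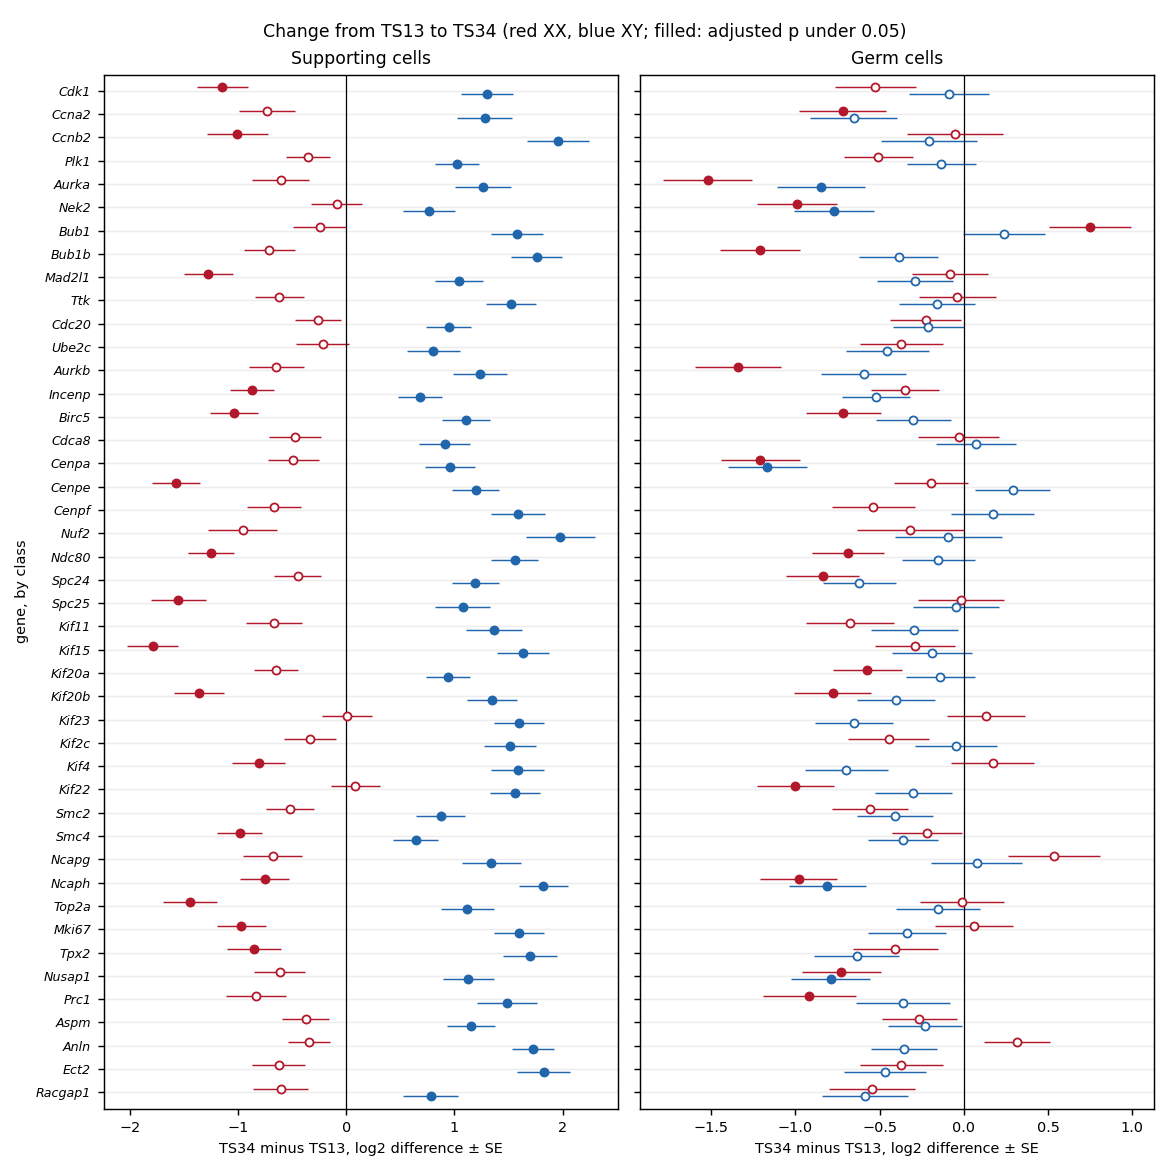
TS34 minus TS13 log2 difference ± SE of each mitosis gene in XX (red) and XY (blue) cells, for supporting cells (left) and germ cells (right), with filled points at a limma adjusted p under 0.05. In supporting cells all 44 XY points are filled and lie right of 0, and the 16 filled XX points lie left of it. In germ cells filled points lie left of 0 except XX Bub1 at 0.75.

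Germ cells, all from the Oct4 line, kept a high level at every stage. In XX germ cells 15 of the 44 genes were lower at TS34 than at TS13 and 1 was higher, against 10.9 percent and 6.64 percent of all genes called, with a median of -0.43 against -0.14 over all genes. The share called lower, 15 of 44, stood above that background, but the decreases were small beside the cell type difference. The spindle pole kinase Aurka was lowest (-1.52 ± 0.26, limma adjusted p = 1.8e-05), followed by Aurkb (-1.34 ± 0.25), Bub1b (-1.21 ± 0.24) and Cenpa (-1.21 ± 0.24). Aurka went from 10.94, 10.57 and 10.18 to 9.09, 9.37 and 8.67, and Aurkb from 9.53, 9.76 and 10.05 to 8.93, 8.32 and 8.07, without overlap. The other decreases were those of Kif22, Nek2, Ncaph, Prc1, Spc24, Kif20b, Nusap1, Ccna2, Birc5, Ndc80 and Kif20a, between -1.001 and -0.57. Marker means of other cells were lower at TS34 in XX germ cells too. The erythroid mean was 6.97 to 7.37 at TS13 and 6.11 to 6.56 at TS34. The endothelial mean was 6.60 to 6.78 at TS13 and 6.16 to 6.52 at TS34. The part of these markers in the decreases was not tested.

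Bub1 rose in XX germ cells (0.75 ± 0.24, limma adjusted p = 0.023), from 11.30, 11.41 and 11.12 to 12.13, 12.02 and 11.92. Its difference was 0.67 to 0.97 in the alternatives, but the call was lost with all 36 arrays (limma adjusted p = 0.223), with array weights (0.0556), without TS13 replicate 1 or 3 and without TS34 replicate 1 or 2. Top2a (-0.01), Spc25 (-0.01) and Cdca8 (-0.03) differed least, and Mki67 had a difference of 0.06 ± 0.23. The count of 16 was 9 without TS34 replicate 3 and 10 without TS34 replicate 2. From TS13 to TS24 none of the 44 was called in XX germ cells, against 1.21 percent of all genes. At an unadjusted limma p under 0.05 there were 7 of the 44, against 2096 of all 17571 genes. Bub1 had the largest value (0.96 ± 0.27, limma adjusted p = 0.060). From TS24 to TS34, 7 were lower (7.02 percent of all genes). They were Ncaph (-1.21 ± 0.25), Kif11 (-1.18 ± 0.29), Aurkb (-1.004 ± 0.28), Cenpe (-0.99 ± 0.25), Plk1 (-0.98 ± 0.23), Bub1b (-0.79 ± 0.26) and Aspm. This count was 2 when the left-out array was kept, and 4 without either TS24 array or without TS34 replicate 3.

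In XY germ cells 5 genes were lower at TS34 than at TS13 and none was higher (4.81 percent of all genes called lower), with a median of -0.32 against -0.04. They were Cenpa (-1.17 ± 0.24, limma adjusted p = 3.9e-04), Aurka (-0.85 ± 0.26), Ncaph (-0.81 ± 0.23), the spindle microtubule gene Nusap1 (-0.79 ± 0.24) and Nek2 (-0.77 ± 0.24). Cenpa went from 10.65, 10.27 and 10.34 to 8.82, 9.49 and 9.45, and all TS34 arrays were below all TS13 arrays. Spc25 (-0.04), Kif2c (-0.05) and Cdca8 (0.07) differed least. The count was 1 without TS34 replicate 1, 8 without TS34 replicate 2, 2 without TS13 replicate 1 and 3 without TS13 replicate 3. TS34 replicate 1 had the lowest median of the mitosis genes in its group (9.63) and the lowest median of all arrays (6.412). The erythroid mean of XY germ cells was 6.83 to 7.47 at TS13 and 6.15 to 6.69 at TS34. The endothelial mean was 6.53 to 6.86 at TS13 and 6.03 to 6.515 at TS34. The part of these markers was not tested. None of the 44 was called in XY germ cells from TS13 to TS24, against 1.5 percent of all genes. At an unadjusted limma p under 0.05 there were 3 of the 44, against 1781 of all 17571 genes. From TS24 to TS34, Cenpa (-0.93 ± 0.24), the condensin gene Smc2 (-0.89 ± 0.22), Spc24 (-0.75 ± 0.22) and Incenp (-0.74 ± 0.20) were lower (1.75 percent of all genes), a count that was 0 without TS34 replicate 1, 1 without TS24 replicate 2 or 3, 2 without TS34 replicate 3 and 7 without TS34 replicate 2.

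XX and XY germ cells differed little. None of the 44 was called at TS13, where 0.0285 percent of all genes were. None was called at TS24, where 1.96 percent of all genes were. At an unadjusted limma p under 0.05 there were 0 of the 44 at TS13, against 554 of all 17571 genes. At TS24 there were 5 of the 44, against 2629 of all genes. The medians of the 44 were 0.02 at TS13 and 0.19 at TS24. At TS34, 3 genes were higher in XY cells and 2 lower, where 6.04 percent and 4.46 percent of all genes were called, so the share among the mitosis genes was near the background. Aurkb was higher in XY (0.78 ± 0.25, limma adjusted p = 0.036), as were Bub1b (0.78 ± 0.24) and the kinetochore gene Ndc80 (0.64 ± 0.22). The chromokinesin Kif4, which lies on the X chromosome, was lower in XY (-1.02 ± 0.25, limma adjusted p = 0.0027), as was Kif23 (-0.80 ± 0.23). Kif4 was at 10.05, 9.62 and 9.83 on the XX arrays and at 8.44, 8.98 and 9.004 on the XY arrays, with no overlap. Bub1b was at 9.84, 9.39 and 9.52 in XX and at 10.21, 10.48 and 10.40 in XY cells, also without overlap. The calls of the 3 genes higher in XY were lost without XX replicate 2 or 3 and without XY replicate 2 or 3. The change of the germ cell sex difference between TS13 and TS34 was called for none of the 44, against 3.69 percent of all genes. At an unadjusted limma p under 0.05 there were 7 of the 44, against 2459 of all 17571 genes. Kif4 was at -0.87 ± 0.35 (limma adjusted p = 0.19).

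Germ and supporting cells of the same sex and stage were compared to place the division genes between the lineages. Averaged over sexes and stages, all 44 were higher in germ cells (32.9 percent of all genes were called higher), with a median of 2.38 against 0.08 over all genes. Beside Bub1 (3.93 ± 0.10), the largest differences were those of Cenpf (3.63 ± 0.10), the condensin I gene Ncapg (3.51 ± 0.11) and Ttk (3.48 ± 0.10), and the smallest those of the centralspindlin gene Racgap1 (1.24 ± 0.11), Aurkb (1.44 ± 0.11) and Smc4 (1.45 ± 0.09). Cell type and line cannot be told apart in these comparisons.

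In XX gonads all 44 were higher in germ cells at each stage, with medians of 2.97 at TS13 (20.1 percent of all genes), 3.30 at TS24 (16.5 percent) and 3.40 at TS34 (17.2 percent). In XY gonads all 44 were higher at TS13 (23.5 percent of all genes) with a median of 2.48, but 32 at TS24 (16.9 percent) with a median of 0.92 and 31 at TS34 (16.8 percent) with a median of 0.82. At TS34 in XY gonads, Bub1 (2.23 ± 0.24), Cenpf (2.16 ± 0.25), Ttk (1.95 ± 0.23) and Ncapg (1.82 ± 0.27) stood furthest above the supporting cells. Ncapg was at 10.805, 11.002 and 11.022 in germ cells and at 9.18, 9.15 and 9.03 in supporting cells. The 13 genes not called were Kif23 (-0.28 ± 0.23), Ncaph (-0.12 ± 0.23), Cdk1 (-0.11 ± 0.24), Racgap1 (-0.07 ± 0.25), Tpx2 (0.01 ± 0.25), Aurkb, Kif4, Kif22, Plk1, Nusap1, Mki67, Aurka and Prc1. All 7 centromere and kinetochore genes and all 4 checkpoint genes were called there, but 1 of 3 mitotic kinases and 3 of 7 genes of spindle assembly and cytokinesis. Tpx2 was at 9.36, 9.64 and 9.58 in XY germ cells and at 9.45, 9.59 and 9.51 in XY supporting cells, which overlap.

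**Figure D5:**
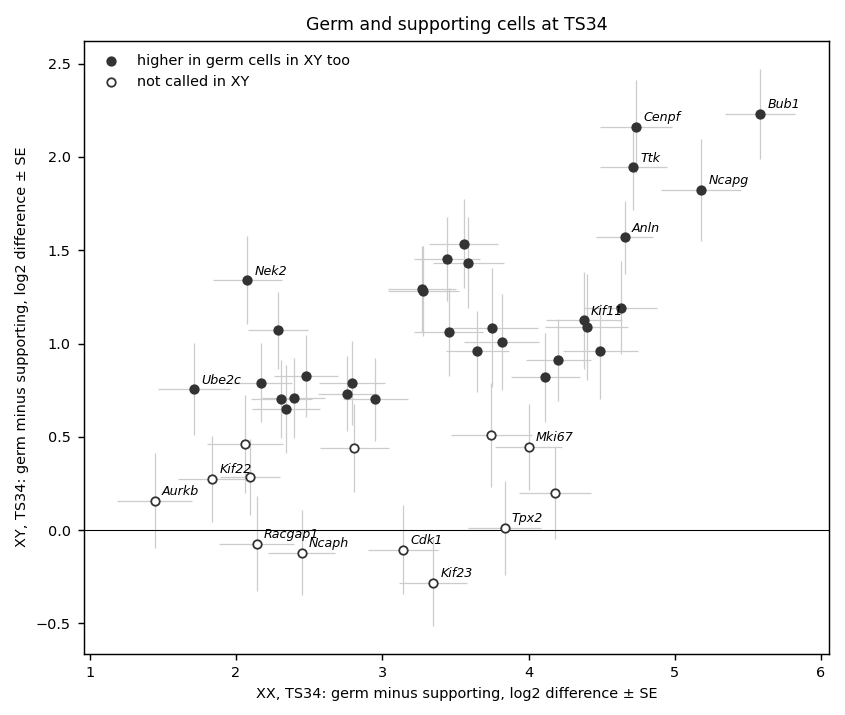
Germ minus supporting log2 difference ± SE at TS34 for each mitosis gene in XX gonads (horizontal) and XY gonads (vertical), filled where the gene was called higher in XY germ cells. All genes lie between 1.44 (Aurkb) and 5.58 (Bub1) in XX, and between -0.28 (Kif23) and 2.23 (Bub1) in XY, with 13 open points.

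The germ minus supporting difference shrank between TS13 and TS34 in XY gonads for 43 of the 44 genes (8.23 percent of all genes), by a median of -1.67. Ncaph had the largest change (-2.63 ± 0.32, limma adjusted p = 2.5e-08), and Cdca8 (-0.84 ± 0.34, limma adjusted p = 0.11) was the gene not called. In XX gonads 7 genes had a larger difference at TS34 than at TS13 and 1 a smaller one (3.81 and 6.31 percent of all genes). Spc25 (1.54 ± 0.36), Kif15 (1.50 ± 0.34), Top2a (1.44 ± 0.35) and Cenpe (1.38 ± 0.31) grew most, and Kif22 shrank by -1.08 ± 0.32. Averaging the 2 Top2a probe sets ended its call (0.35, limma adjusted p = 0.63).

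Other division genes were listed from the same machinery. Of 74 further mitosis genes, 70 were higher and 3 lower in germ cells (32.9 and 20.3 percent of all genes). In XY against XX supporting cells at TS34, 50 were higher and 1 lower (8.24 and 5.74 percent of all genes), and 8 fell in XX supporting cells from TS13 to TS34 (1.97 percent of all genes). The kinetochore scaffold Knl1 (3.32 ± 0.24), the shugoshin Sgo2a (3.20 ± 0.26), the kinase Pbk (3.10 ± 0.25) and the spindle protein Hmmr (2.99 ± 0.22) led the sex difference in supporting cells, and Pbk led the XX decrease (-2.70 ± 0.25). In germ cells 24 of the 74 fell and 3 rose in XX from TS13 to TS34 (10.9 and 6.64 percent of all genes), led by the cohesin regulator Cdca5 (-1.83 ± 0.29), and 14 fell in XY (4.81 percent of all genes), led by Ska2 (-1.90 ± 0.24), a subunit of the kinetochore Ska complex. Of 12 replication licensing genes, 12 were higher in germ cells (32.9 percent of all genes) and 10 higher in XY supporting cells at TS34 (8.24 percent of all genes), where the licensing inhibitor Gmnn (2.01 ± 0.25) led. In germ cells 5 of the 12 fell in XX and 6 in XY from TS13 to TS34, against 10.9 and 4.81 percent of all genes, led by Mcm10 (-1.14 ± 0.20) and Cdc6 (-1.55 ± 0.25). Of 14 subunits of the anaphase-promoting complex, 2 were higher and 1 lower in XY than XX supporting cells at TS34, shares near those of all genes (8.24 and 5.74 percent), with Anapc15 at 1.67 ± 0.23 and Cdc16 at -0.69 ± 0.22.

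Of 23 genes that act in the transcription of mitosis genes, 4 were higher in XY supporting cells at TS34, against 8.24 percent of all genes. They were Mybl1 (4.09 ± 0.24), which encodes A-MYB, Foxm1 (2.48 ± 0.27), E2f8 (1.53 ± 0.24) and E2f7 (0.999 ± 0.22), the last pair encoding repressors of the E2F family. Mybl1 was also higher in XY supporting cells at TS13 (2.91 ± 0.24, limma adjusted p = 1.8e-13), while Foxm1 was not among the calls there. In XX germ cells from TS13 to TS34, Mybl2, which encodes B-MYB, fell (-1.58 ± 0.21) and Mybl1 rose (1.49 ± 0.24), and Mybl2 fell in XY germ cells too (-0.98 ± 0.21). Of 7 CDK inhibitor genes listed, 6 were matched, without Cdkn1a. In XY against XX supporting cells 2 of the 6 were lower at each stage and none was higher. Over all 17571 genes, 341 were lower at TS13, 980 at TS24 and 1008 at TS34. The 2 genes were Cdkn1b, the gene of p27 (-1.95 ± 0.33 at TS13 and -2.58 ± 0.33 at TS34), and Cdkn1c, the gene of p57 (-0.84 ± 0.22 and -1.14 ± 0.22). The 4 Cdkn2 genes were not called. From TS13 to TS34 Cdkn1b was not called in supporting cells (0.38 ± 0.33 in XX and -0.24 ± 0.33 in XY). Over the same stages Cdkn1c was lower in XY supporting cells (-0.93 ± 0.22, limma adjusted p = 0.0023). In XX supporting cells Cdkn1c was not called (-0.63 ± 0.22, limma adjusted p = 0.10). In germ cells at TS34 Cdkn1b was higher in XY (1.41 ± 0.33, limma adjusted p = 0.0024), and Cdkn2c (-0.59 ± 0.20) and Cdkn2d (-0.63 ± 0.21) were lower. At TS34 the supporting arrays of Cdkn1b were at 12.22, 11.66 and 12.18 in XX and 9.25, 9.52 and 9.57 in XY.

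The 44 genes followed each other closely over the 12 group means. The Pearson correlation of a gene with the mean of the mitosis genes ran from 0.93 to 0.996 with a median of 0.984, against a median of 0.25 for 17527 other genes. After the mean of each cell type was removed it ran from 0.811 to 0.994, lowest for Nek2. The genes outside the set with the most similar profile were Sgo2a (0.9959), Hmmr (0.9945), Arhgap11a (0.9942), Lsm6 (0.991), Ska3 (0.9906) and Ckap2 (0.9895), and after removal of the cell type mean Tacc3 (0.9954) came first. The points share arrays, reporter lines and the split by cell type, so these correlations are descriptions of 12 groups. Each mitosis gene is also part of the mean it was set against, and the other genes are not.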

How the data were processed

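Log2 expression values per probe set, as deposited by the authors, were made with RMA per the submitters' processing notes; which of its settings were used is not given here. The RNA came from FACS-sorted cells, per the labels' protocols. The table held 35557 probe sets and 36 arrays, of which 35 were used. Array medians ran from 6.412 to 6.841, so whether RMA's quantile step was applied is unknown, and no normalization was added in the main setting. Symbols of the platform annotation were updated by Entrez identifier to RefSeq GRCm38.p6 (21698 of 21789 single-symbol probe sets), and the probe set with the highest mean stood for each of 19938 genes. Genes above the 25th percentile of an array on at least 3 arrays were tested: 17571 genes, all 44 mitosis genes among them.

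A limma 3.58.1 model (R 4.3.3) with 1 mean per group gave 29 comparisons and interactions with Benjamini-Hochberg adjusted p over all genes, two-sided, called under 0.05. The median SE of 3 against 3 arrays was 0.211, and the number of arrays limits the precision. The script was tested on simulated data. Genes with values were named by rule: the 6 array examples, the 4 called genes with the largest and the 3 with the smallest difference in a comparison, the extremes of each role, every gene of counts of 5 or fewer, and the 4 leading called genes of other lists. The members and lists were chosen with earlier results of these data known. Alternatives were all 36 arrays, quantile normalization, median centring, no filter or one at the 50th percentile, averaged probe sets, a replicate block, only the groups compared, array weights and each array left out.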

Additional observations from a re-analysis of the deposited data

Results flagged for a closer look

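Comparisons whose size differed between groups by a direct test are listed here with their values. The sex difference of supporting cells changed between TS13 and TS34 for 42 mitosis genes, and the changes were largest for Kif15 (3.42), Ccnb2 (2.97), Nuf2 (2.94) and Ndc80 (2.81), all toward XY. The stage change from TS13 to TS34 differed between germ and supporting cells of XX gonads for 8 genes. Spc25 (1.54), Kif15 (1.50), Top2a (1.44) and Cenpe (1.38) were relatively higher in germ cells and Kif22 (-1.08) relatively lower. With its probe sets averaged, Top2a was at 0.35 and not called. In XY gonads the stage change differed for 43 genes, with Ncaph (-2.63), Tpx2 (-2.33), Ect2 (-2.29) and Kif4 (-2.29) lowest in germ relative to supporting cells. The supporting cell sex difference and the XY comparison cross the reporter lines.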

How the results depend on the processing

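The counts of mitosis genes called in the larger comparisons moved by less than 1.5 times under every alternative run: germ against supporting cells in each sex and stage, the sex difference of supporting cells at TS24 and TS34 and its growth, and the XY supporting change from TS13. The smaller counts moved. With array weights the supporting XX change from TS13 to TS34 had 35 calls in place of 16, that from TS13 to TS24 8 in place of 5, that from TS24 to TS34 4 in place of 1, and the supporting XY change from TS24 to TS34 3 in place of 0. Array weights also gave 25 calls in place of 13 for the supporting sex difference at TS13. They gave 9 in place of 5 for the germ sex difference at TS34, 8 higher and 1 lower. There, all genes called higher went from 1062 to 4300 and all called lower from 783 to 808. The median over all genes went from 0.063 to 0.266. Relative to that median the mitosis genes were at 0.084 in the main setting and at 0.023 with array weights. With array weights the XY germ change from TS13 to TS34 had 3 calls in place of 5. The change of the germ sex difference had 1 in place of 0. The XX stage change of germ against supporting cells had 15 in place of 8. With all 36 arrays there were 5 calls for the supporting sex difference at TS13, 1 for the germ sex difference at TS34 (0 higher and 1 lower, a reversal of the majority), 3 for the XY germ change from TS13 to TS34, 5 for the XX stage change of germ against supporting cells, 2 for the XX germ and 1 for the XY germ change from TS24 to TS34, 1 for the germ sex difference at TS24 and 0 for the supporting XX change from TS24 to TS34. Quantile normalization and median centring gave 21 and 20 calls for the supporting sex difference at TS13, 8 and 8 for the supporting XX change from TS13 to TS24, 0 and 0 from TS24 to TS34, and 13 and 13 for the XX stage change of germ against supporting cells. Quantile normalization alone gave 2 for the XY germ change from TS24 to TS34, 1 for the XX germ change from TS13 to TS24 and 1 for the change of the germ sex difference. It lowered the median difference from 2.38 to 2.20 for germ against supporting cells, from 2.48 to 2.10 in XY at TS13 and from 1.67 to 1.37 for the supporting XY change from TS13 to TS24, where it moved the median of all genes from 0.22 to 0.01 and the split of all calls from 2658 higher and 299 lower to 1177 and 804. For germ against supporting cells that split went from 5785 and 3560 to 4366 and 5271, and relative to the median of all genes the mitosis genes were at 2.30 and 2.24. Fitting only the groups compared gave 3 calls for the supporting XX change from TS13 to TS24 and 2 for the XY germ change from TS24 to TS34. Leaving out 1 array at a time gave 3 to 9 and 0 to 3 calls for the supporting XX changes to and from TS24, 9 to 18 for the XX germ change from TS13 to TS34, 4 to 10 from TS24 to TS34, 1 to 8 for the XY germ change from TS13 to TS34, 0 to 7 from TS24 to TS34, 5 to 13 for the supporting sex difference at TS13 and 1 to 6 for the germ sex difference at TS34. The last count had 0 higher and 2, 2, 2 and 1 lower without XX replicates 2 and 3 and XY replicates 2 and 3. The cause of these shifts was not tested. Groups share replicate numbers in the labels, but same-numbered arrays did not deviate together (median r of -0.007 over 187 pairs, against 0.003 for 374 pairs of different number). With the replicate number as a block, 17 genes were called in place of 16 for the supporting XX change from TS13 to TS34 and 5 in place of 7 for the XX germ change from TS24 to TS34. No mitosis gene that was called in the main setting or an alternative changed direction under any alternative.

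Groups of 3 arrays, and 2 in XX germ cells at TS24, limit what a stage change of under about 0.6 can show. Reporter line cannot be told apart from cell type or from the later XY supporting groups.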

Other observations

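On the left-out array, labelled germ XX TS24 replicate 3, the mitosis genes had a median of 9.43 and ran from 7.13 to 11.80, with Mki67 at 9.52, Top2a at 11.10 and Bub1 at 9.45. The 2 other arrays of that group had medians of 10.26 and 10.20. Pdgfra, a stromal gene, was at 10.60 on the left-out array.

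Other genes whose group means, less the mean of each cell type, followed the mitosis genes were Sgo2a (Pearson r of 0.9932 over 12 groups), Arhgap11a (0.9895), Sh3tc2 (0.9863), Hmmr (0.985) and Tacc1 (0.9818).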
